A study of Homo sapiens with 6 samples.

Results

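Of the 20811 genes in the expression table, 10 that encode collagen crosslinking and hydroxylation enzymes were taken by their symbols: the lysyl oxidase LOX and its paralogues LOXL1, LOXL2, LOXL3 and LOXL4, the lysyl hydroxylases PLOD1, PLOD2 and PLOD3, and the catalytic subunits P4HA1 and P4HA2 of prolyl 4-hydroxylase. They were compared between 2 lines made from HuCCT1, a human intrahepatic cholangiocarcinoma (bile duct cancer) cell line. HuCCT1/CD90+ cells carried a lentivirus with human THY1, the gene of the surface protein CD90, together with GFP under a CMV promoter. HuCCT1/CD90- cells carried a blank lentivirus with CMV-driven GFP and a puromycin resistance gene, so that GFP and a lentiviral insert were common to both lines. Each line gave 3 libraries of total RNA, read with an amplicon panel that covers each gene by 1 amplicon. The comparison asks how raised CD90 changes the expression profile of these cells. Whether a line was a clone or a pool of transduced cells, and whether its 3 libraries came from separate cultures, was not stated, so the p-values measure only the spread between these libraries, which may be technical.

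Collagen chains are modified before they fold. Prolyl 4-hydroxylases hydroxylate proline, which makes the triple helix stable at body temperature, and lysyl hydroxylases hydroxylate lysine in the helix and, for PLOD2, in the telopeptides at its ends, all inside the endoplasmic reticulum. After secretion, the copper-dependent lysyl oxidases turn lysine and hydroxylysine side chains into aldehydes that crosslink collagen and elastin, a process known for stiffening the desmoplastic stroma of cholangiocarcinoma, where fibroblasts make most of the matrix.

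Values are RPM, the reads of a gene scaled to a common library total, and 9345680 to 10551516 reads stood behind each HuCCT1/CD90- library and 8587634 to 9327650 behind each HuCCT1/CD90+ library, so that 3 reads equal 0.284 to 0.349 RPM. THY1 itself had at most 1 read in any HuCCT1/CD90- library and 46.6, 51.8 and 73.8 RPM in HuCCT1/CD90+. Of 7 biliary epithelial markers all were detected and 5 rose in HuCCT1/CD90+ at a limma adjusted p of 0.05. The same rule called 9.41% of all genes higher and 9.52% lower, and 14.4% and 15% of those averaging 1 RPM or more. With the replicate number as a block 3 markers rose, with KRT19 at a limma adjusted p of 0.135 and KRT8 at 0.0921. When 1 library was left out, KRT19 passed in 2 and KRT8 in 1 of 6 fits. The summed level of the 7 was 8210 to 9314 RPM in HuCCT1/CD90- against 10974 to 11722 RPM. Of 6 fibroblast markers 3 fell (PDGFRB, DCN and LUM), of which DCN did not pass with the block (limma adjusted p = 0.0859) and passed in 1 of 6 fits without 1 library, and LUM passed in 0 of those 6. The list had summed levels of 40.2 to 63.5 RPM in HuCCT1/CD90- against 20.4 to 24.7 RPM, and FAP was at 0 in every HuCCT1/CD90- library. COL1A1 averaged 13.5 and 14.2 RPM and did not pass, and PDGFRA had at most 4 reads in any library. Of 3 endothelial genes CDH5 fell from 16.6 to 0.293 RPM on average. PECAM1 averaged 2.19 and 0.527 RPM and did not pass (limma adjusted p = 0.145), and KDR had at most 1 read. Of 3 leukocyte genes PTPRC had at most 1 read and CD3E at most 3, while CD68 rose from 50.8 to 92.2 RPM (limma adjusted p = 0.0089). The summed level of these 3, almost all of it CD68, was 46.5 to 55.9 RPM in HuCCT1/CD90- against 83.9 to 100.5 RPM. Some of these marker levels thus differed between the same lines as the enzymes below, and their part in the enzyme results was not tested.

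In HuCCT1/CD90+, 1 of the 10 enzyme genes was higher and 4 were lower, so that 5 passed an adjusted p of 0.05 in limma on log2(RPM + 1) with Benjamini-Hochberg adjustment over all genes. Over the whole table the same rule called 18.9% of genes (9.41% higher, 9.52% lower). It called 29.4% of the 12062 genes that averaged 1 RPM or more (14.4% higher, 15% lower), a level that all 10 enzymes reached. LOXL3 rose, LOXL1, LOXL2, PLOD1 and P4HA2 fell, and LOX, LOXL4, PLOD2, PLOD3 and P4HA1 did not pass. The 3 libraries of one line lay wholly above or below those of the other for 8 of the 10 genes, 3 higher and 5 lower, beside 52.6% of genes at 1 RPM or more (25.7% higher, 26.9% lower). The enzymes had a median log2 fold change of -0.38, beside -0.0086 for all genes at 1 RPM or more. With the replicate number of the labels as a block, limma called 4 enzymes and 13.1% of all genes. With median centring of the libraries the call extended to 8 enzymes, 3 higher and 5 lower, and to 24.7% of all genes. Without HuCCT1/CD90- replicate 2 or without HuCCT1/CD90- replicate 3 the count was 2 enzymes, and without HuCCT1/CD90+ replicate 3 it was 3. The share of all genes called fell in those fits too, to 12.8%, 11.8% and 10.6%.

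**Figure D1:**
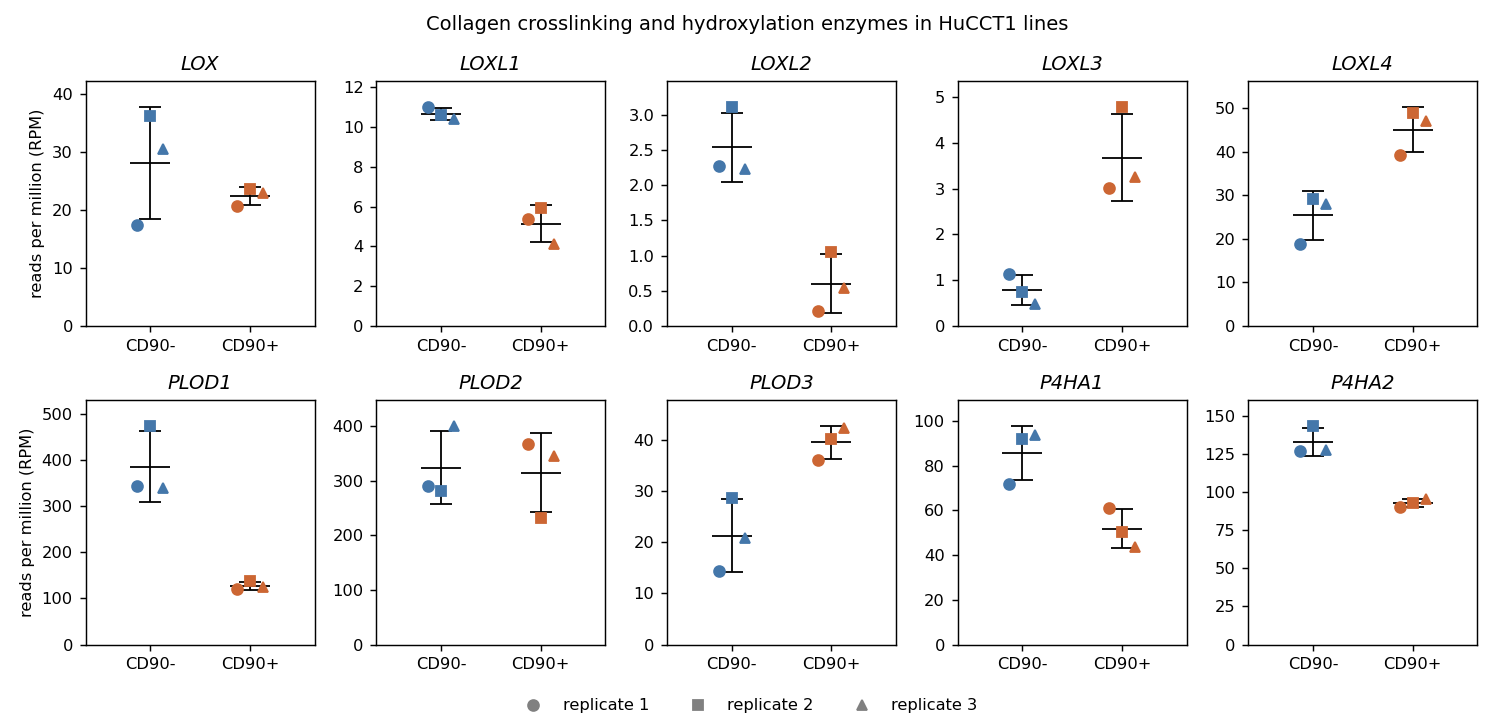
Expression of the 10 enzyme genes in RPM (y axis, linear and starting at 0 in each panel) in the 3 HuCCT1/CD90- and 3 HuCCT1/CD90+ libraries. Points are libraries, the horizontal dash is the mean and the bars are the SD. The groups are apart for every gene except LOX and PLOD2, and PLOD1 drops from a mean of 385 to 127 RPM.

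PLOD1 encodes lysyl hydroxylase 1, which hydroxylates lysines in the helical part of fibrillar collagens and whose loss causes kyphoscoliotic Ehlers-Danlos syndrome. It lies on chromosome 1 from 11934205 to 11975538 on the plus strand (GRCh38, GENCODE), and no other annotated exon shares its exon bases. Its levels were 342, 474 and 339 RPM in HuCCT1/CD90- and 120.3, 137 and 124 RPM in HuCCT1/CD90+. The lowest HuCCT1/CD90- library stood more than 2-fold above the highest HuCCT1/CD90+ library. The means, 385 ± 76.8 and 127 ± 8.52 RPM (SD, n = 3), differed 3.03-fold, with a log2 fold change of -1.58 (SE 0.16, 95% interval -2.00 to -1.15, limma adjusted p = 0.0060). The call was kept in all 6 fits that left out 1 library, with adjusted p-values from 0.0051 to 0.0343. In bulk RNA, fewer cells expressing a gene and less of its RNA per cell cannot be told apart.

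PLOD3 encodes lysyl hydroxylase 3, the family member that also adds glucose to galactosylhydroxylysine and is needed for basement membrane collagen (chromosome 7, 101205977 to 101218420, minus strand). It measured 14.3, 28.7 and 20.9 RPM in HuCCT1/CD90- and 36.0, 40.2 and 42.4 RPM in HuCCT1/CD90+. All 3 HuCCT1/CD90+ libraries were above all HuCCT1/CD90- libraries, which spread more widely. The mean was 1.86-fold higher, 39.5 ± 3.25 against 21.3 ± 7.19 RPM (SD, n = 3), but the log2 fold change of 0.91 (SE 0.27, 95% interval 0.19 to 1.63) had a limma adjusted p of 0.0933 and did not pass. When limma was fitted only to genes at 1 RPM or more its adjusted p was 0.0062, with 41.7% of those genes called. Its exons share bases with ZNHIT1 on the opposite strand, which ranged from 41.2 to 59.9 RPM in HuCCT1/CD90- against 82.5 to 92.7 RPM. Whether the counting used strand was not given, so reads of the 2 genes may not be separate.

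PLOD2 encodes lysyl hydroxylase 2, the enzyme of the telopeptides that sets the kind of crosslink and is known to be induced by hypoxia (chromosome 3, 146069440 to 146163653, minus strand). Its levels were 291, 281 and 401 RPM in HuCCT1/CD90- and 367, 233 and 346 RPM in HuCCT1/CD90+. The ranges overlapped, with 1 library of each line outside the range of the other. The log2 fold change was -0.050 with a 95% interval from -0.71 to 0.61 (limma adjusted p = 1.0), an interval wide enough to hold a change of 1.5-fold in either direction.

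The promoters of the 3 lysyl hydroxylases are shown because the levels of the 3 genes compared differently between the lines. Each is 250 bases before to 50 after the start site of RefSeq (GRCh38.p14), 5′ to 3′ on the strand of the gene, and capitals mark the cores ACGTG or GCGTG of the hypoxia response element on either strand.
PLOD1, chr1:11934467-11934766, plus strand: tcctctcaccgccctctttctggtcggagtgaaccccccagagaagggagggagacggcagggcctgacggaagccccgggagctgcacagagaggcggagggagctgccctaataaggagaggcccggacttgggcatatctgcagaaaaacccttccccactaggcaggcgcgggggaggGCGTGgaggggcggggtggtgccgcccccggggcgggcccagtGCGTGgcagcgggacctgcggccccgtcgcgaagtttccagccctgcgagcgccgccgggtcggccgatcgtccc
PLOD2, chr3:146161135-146161434, minus strand: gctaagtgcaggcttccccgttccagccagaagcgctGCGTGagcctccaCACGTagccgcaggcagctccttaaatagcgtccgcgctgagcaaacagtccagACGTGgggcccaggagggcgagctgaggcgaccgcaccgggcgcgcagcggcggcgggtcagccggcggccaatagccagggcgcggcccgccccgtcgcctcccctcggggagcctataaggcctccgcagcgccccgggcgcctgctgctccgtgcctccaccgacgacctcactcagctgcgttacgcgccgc
PLOD3, chr7:101217532-101217831, minus strand: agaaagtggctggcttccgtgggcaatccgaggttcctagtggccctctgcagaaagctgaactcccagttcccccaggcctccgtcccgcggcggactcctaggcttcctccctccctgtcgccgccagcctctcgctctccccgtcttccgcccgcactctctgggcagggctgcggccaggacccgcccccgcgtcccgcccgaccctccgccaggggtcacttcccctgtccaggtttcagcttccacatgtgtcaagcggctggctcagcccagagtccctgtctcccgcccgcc
PLOD1 held the letters GCGTG from bases -68 and -25 relative to the start, PLOD2 held GCGTG at 1 place and ACGTG at 2, and PLOD3 held neither core. The letters ACGTG occurred in 21.4%, GCGTG in 36.5% and either in 48.4% of 35116 promoter windows of the same length, and either occurred in 7 of the 12 windows found for 9 of the 10 enzymes. Of those windows 3 belong to LOX, and 2 of these overlap and share their matches. The E-box letters CACCTG, searched on both strands as well, occurred in 20.6% of all windows and in 4 of those 12. These are matches of letters, and binding at them was not measured.

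P4HA1 and P4HA2 encode the alternative catalytic subunits that pair with the protein disulfide isomerase P4HB to form collagen prolyl 4-hydroxylase. P4HA2 (chromosome 5, 132191838 to 132295315, minus strand) measured 127, 143 and 128 RPM in HuCCT1/CD90- and 90.1, 92.9 and 95.3 RPM in HuCCT1/CD90+. The groups were apart and each was tight. The mean fell from 133 ± 9.31 to 92.7 ± 2.61 RPM (SD, n = 3), 1.43-fold, and the log2 fold change of -0.51 (SE 0.058, 95% interval -0.67 to -0.35) passed with a limma adjusted p of 0.0085 and in all 6 fits without 1 library. This change lies under the 1.5-fold limit that the study used with p at most 0.05.

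P4HA1 (chromosome 10, 73007217 to 73096974, minus strand) measured 71.8, 91.9 and 93.5 RPM in HuCCT1/CD90- and 61.2, 50.2 and 43.8 RPM in HuCCT1/CD90+. Every HuCCT1/CD90+ library was below every HuCCT1/CD90- library. The mean was 1.66-fold lower, 51.7 ± 8.79 against 85.8 ± 12.1 RPM (SD, n = 3), while the log2 fold change of -0.72 (95% interval -1.18 to -0.26) had a limma adjusted p of 0.0569. P4HA1 thus had the larger fold difference and P4HA2 the smaller error. The promoter of P4HA1, in the same layout as above, is shown because this gene is a textbook hypoxia target, and it held 1 ACGTG core, on the opposite strand, from base -86.
P4HA1, chr10:73096817-73097116, minus strand: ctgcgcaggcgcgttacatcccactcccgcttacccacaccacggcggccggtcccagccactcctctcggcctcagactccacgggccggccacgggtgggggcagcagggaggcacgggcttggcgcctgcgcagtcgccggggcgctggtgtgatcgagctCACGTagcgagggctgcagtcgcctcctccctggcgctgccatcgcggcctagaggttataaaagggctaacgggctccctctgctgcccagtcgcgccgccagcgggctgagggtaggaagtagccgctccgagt

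LOXL3, a lysyl oxidase of the subgroup with scavenger receptor domains that is needed for palate and spine cartilage development, was the only called enzyme that rose. It lies on chromosome 2 from 74532414 to 74555690 on the minus strand. Its levels were 1.14, 0.749 and 0.485 RPM in HuCCT1/CD90-, or 12, 7 and 5 reads, and 3.00, 4.77 and 3.26 RPM in HuCCT1/CD90+, or 28, 41 and 30 reads. The groups were apart at a low level in both lines. The mean was 4.65-fold higher in HuCCT1/CD90+, 3.68 ± 0.958 against 0.790 ± 0.328 RPM (SD, n = 3), and on the log2(RPM + 1) scale, which understates changes at such levels, the difference was 1.38 (SE 0.21, limma adjusted p = 0.0178). The blocked fit gave LOXL3 a limma adjusted p of 0.0769, and it was 0.0661, 0.0570 and 0.0627 without HuCCT1/CD90- replicate 2, HuCCT1/CD90- replicate 3 and HuCCT1/CD90+ replicate 3. Exon bases of LOXL3 are shared with HTRA2 and DOK1 on the opposite strand, of which HTRA2 ranged from 44.2 to 51.0 RPM and from 62.0 to 76.0 RPM in the 2 lines, and its reads may not be separate from those of LOXL3.

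LOXL2, a lysyl oxidase of the same subgroup that crosslinks collagen IV of basement membranes and lies on chromosome 8, fell. It measured 2.27, 3.10 and 2.23 RPM in HuCCT1/CD90- and 0.214, 1.05 and 0.543 RPM in HuCCT1/CD90+, where 2, 9 and 5 reads were counted. The highest HuCCT1/CD90+ library was below the lowest HuCCT1/CD90- library by more than 1 RPM. The mean was 4.21-fold lower, 0.602 ± 0.420 against 2.54 ± 0.492 RPM (SD, n = 3), with a log2(RPM + 1) difference of -1.17 (SE 0.23, limma adjusted p = 0.0351). The limma adjusted p was 0.0655 with an offset of 0.1 RPM, and over the 6 fits that left out 1 library it ran from 0.0333 to 0.115, passing only without HuCCT1/CD90+ replicate 2. Its exons share bases with ENTPD4 on the same strand, which ranged from 28.9 to 34.5 RPM in HuCCT1/CD90- against 27.9 to 41.6 RPM, so reads may not be separate.

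LOXL1, which is needed for elastic fibre renewal and is a risk locus of exfoliation glaucoma, fell as well (chromosome 15, 73925989 to 73952137, plus strand). Its levels were 11.0, 10.6 and 10.4 RPM in HuCCT1/CD90- and 5.36, 5.94 and 4.12 RPM in HuCCT1/CD90+. The HuCCT1/CD90- libraries lay within 1 RPM of each other and far above the rest. The mean was 2.07-fold lower, 5.14 ± 0.928 against 10.7 ± 0.311 RPM (SD, n = 3), with a log2 fold change of -0.94 (SE 0.13, 95% interval -1.27 to -0.60, limma adjusted p = 0.0126). The limma adjusted p lay just over 0.05 with the replicate block (0.0505), without HuCCT1/CD90- replicate 2 (0.0507) and without HuCCT1/CD90- replicate 3 (0.0509).

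LOXL4, another lysyl oxidase with scavenger receptor domains (chromosome 10, 98247690 to 98268250, minus strand), measured 18.9, 29.2 and 27.9 RPM in HuCCT1/CD90- and 39.2, 48.8 and 47.1 RPM in HuCCT1/CD90+. The groups did not overlap. The mean was 1.78-fold higher in HuCCT1/CD90+, 45.0 ± 5.10 against 25.3 ± 5.65 RPM (SD, n = 3), with a log2 fold change of 0.82 (SE 0.20, 95% interval 0.28 to 1.37). It missed the threshold with a limma adjusted p of 0.0601 and passed it with the replicate block, at 0.0463.

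LOX, the founding lysyl oxidase and a classic hypoxia target (chromosome 5, 122063195 to 122078360, minus strand), measured 17.4, 36.3 and 30.7 RPM in HuCCT1/CD90- and 20.8, 23.6 and 23.0 RPM in HuCCT1/CD90+. All HuCCT1/CD90+ libraries lay inside the HuCCT1/CD90- range. The log2 fold change was -0.25 with a 95% interval from -1.04 to 0.54 (limma adjusted p = 0.68). It was -0.55 (limma adjusted p = 0.058) without HuCCT1/CD90- replicate 1 and -0.043 without HuCCT1/CD90- replicate 2. Its exons share bases with SRFBP1 on the opposite strand, at 43.2 to 51.7 RPM in HuCCT1/CD90- against 42.6 to 43.4 RPM.

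Count tests on the reads recovered from RPM called 8 of the 10 enzymes, all but LOX and PLOD2, with edgeR (44.4% of genes called after filterByExpr, 27.6% without a filter) and with DESeq2 (37% called). The values of the 3 enzymes that these tests added were, as edgeR adjusted p, 0.0010 for LOXL4, 0.0015 for PLOD3 and 0.0013 for P4HA1. The study set a fold change of 1.5 and a p of 0.05, taken here as an unadjusted p. With these limits limma called 7 enzymes, all those 8 but P4HA2, beside 31.7% of genes at 1 RPM or more.

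**Figure D2:**
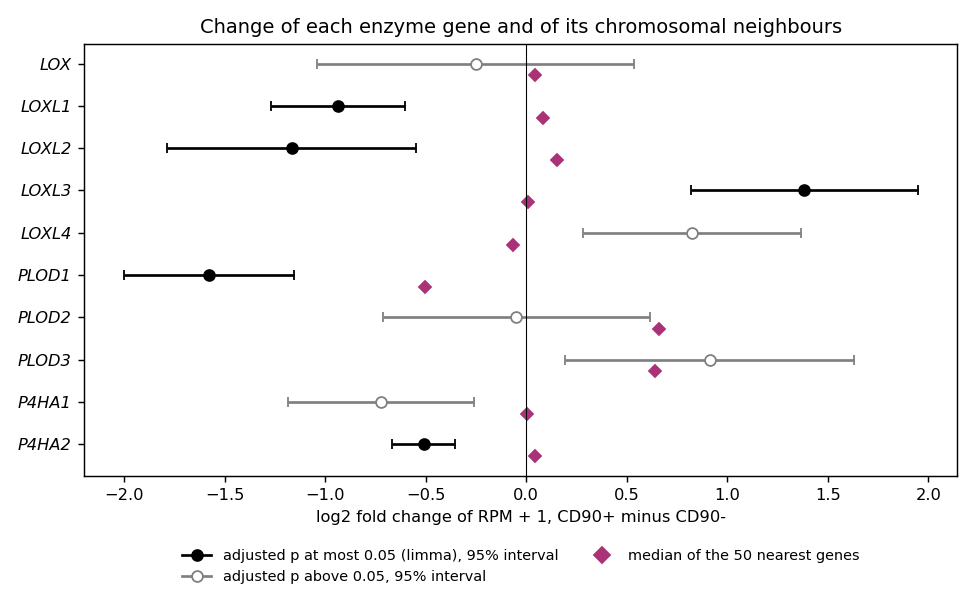
Log2 fold change of RPM + 1 (x axis, HuCCT1/CD90+ minus HuCCT1/CD90-) of each enzyme gene with its 95% interval from limma, filled where the adjusted p is at most 0.05, beside the median of its chromosomal neighbours. PLOD1 (-1.58) and its neighbours (-0.51) are both below 0, PLOD3 (0.91) and its neighbours (0.64) both above 0, and PLOD2 (-0.050) lies below its neighbours (0.66).

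Around some enzymes the neighbouring genes were themselves away from 0. Neighbours were the 50 nearest genes that averaged 10 RPM or more. They had a median log2 fold change of -0.51 around PLOD1, 0.64 around PLOD3 and 0.66 around PLOD2, and between -0.065 and 0.15 around the other 7 enzymes. After subtraction of this local median PLOD1 was at -1.07 (limma adjusted p = 0.0181), PLOD3 at 0.27 (limma adjusted p = 0.61) and PLOD2 at -0.71 (limma adjusted p = 0.15). The number of enzymes called was again 5, with 16% of all genes called. The copy number of these regions in the 2 lines was not measured.

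Ratios between paralogues within a library do not depend on its scaling, although each gene is read by its own amplicon and a ratio is not one of molecules. PLOD1 over PLOD3 was 16.3 to 23.9 in HuCCT1/CD90- and 2.93 to 3.40 in HuCCT1/CD90+, a log2 difference of -2.53. LOXL1 over LOXL3 was 9.67 to 21.4 against 1.24 to 1.79. LOXL2 over LOXL3 was 2 to 4.6 against 0.0713 to 0.220, where the lowest value rests on 2 reads of LOXL2. The ratios are of RPM with no offset, and an offset of 1 RPM reduced the log2 difference of LOXL2 over LOXL3 from -4.61 to -2.55 and that of LOXL1 over LOXL3 from -3.34 to -2.32. LOX over LOXL4 was 0.925 to 1.24 against 0.484 to 0.530. PLOD1 over PLOD2 was 0.846 to 1.68 against 0.328 to 0.587. The 2 prolyl hydroxylase subunits kept closer: P4HA1 over P4HA2 was 0.567 to 0.732 against 0.460 to 0.680, overlapping, with an exact two-sided permutation p of 0.40. Of 14 ratios computed, 12 did not overlap between the lines, beside 55.3% of the ratios of all pairs of genes at 1 RPM or more with no library at 0. PLOD2 over PLOD3, the other ratio that overlapped, had log2 values of 4.35, 3.29 and 4.27 against 3.35, 2.53 and 3.03, by replicate number. Its exact two-sided permutation p was 0.20, and the test did not use pairing by that number. The 14 ratios share genes and are not independent. Each of the 12 had an exact permutation p of 0.10 (0.117 after Benjamini-Hochberg adjustment), which is the smallest that 3 against 3 libraries can give.

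**Figure D3:**
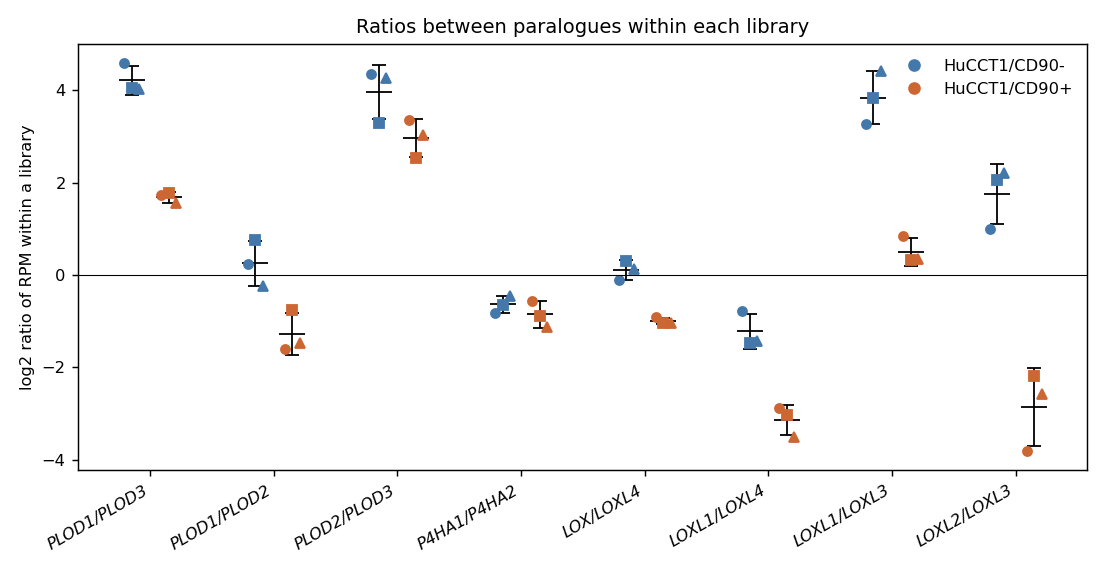
Log2 ratio of RPM (y axis) between paralogues within each library, with points for the libraries of HuCCT1/CD90- and HuCCT1/CD90+, dashes for means and bars for the SD. LOXL2 over LOXL3 falls from a mean of 1.75 to -2.86 and PLOD1 over PLOD3 from 4.22 to 1.68, while P4HA1 over P4HA2 overlaps.

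Other genes of collagen maturation and hypoxia-induced genes, in 5 lists of 55 genes, were called 17 times, 1 higher and 16 lower, beside the 18.9% of all genes (9.41% higher, 9.52% lower) and 29.4% of those at 1 RPM or more given above, and 11 times without HuCCT1/CD90- replicate 3 or without HuCCT1/CD90+ replicate 3. The partners that fold and modify collagen with these enzymes in the endoplasmic reticulum were lower more often than higher. Of 16 measured genes 1 rose, 7 fell and 8 did not pass, with a median log2 fold change of -0.52. Without HuCCT1/CD90- replicate 1 or without HuCCT1/CD90+ replicate 3, 5 fell and none rose. P3H1, the catalytic subunit of the prolyl 3-hydroxylase complex, measured 111, 123 and 118 RPM in HuCCT1/CD90- against 37.2, 32.3 and 42.1 RPM (log2 fold change -1.64, limma adjusted p = 0.0021). CRTAP, its helper subunit, measured 193, 199 and 200.2 RPM against 95.3, 96.9 and 76.9 RPM (log2 fold change -1.14, limma adjusted p = 0.0044). PPIB, the cyclophilin of the complex, named here after its values were seen, had a log2 fold change of 0.27 that did not pass (limma adjusted p = 0.35). The collagen chaperone SERPINH1 (HSP47) fell from 373 ± 21.6 to 210 ± 4.80 RPM (SD, n = 3, log2 fold change -0.83, limma adjusted p = 0.0018). FKBP7, a prolyl isomerase, and P3H3, a prolyl 3-hydroxylase family member (P3H1 and P3H3 are listed as LEPRE1 and LEPREL2), showed the largest fitted falls of the list, from 5.68 to 0.434 RPM and from 3.68 to 0.293 RPM on average. FKBP14 and MIA3 also fell. FKBP10, another prolyl isomerase, named after its values were seen, did not pass (log2 fold change -0.39, limma adjusted p = 0.18), and its limma adjusted p was 0.0174 with the replicate block. MIA3 had a limma adjusted p of 0.0442 that was 0.0752 with the replicate block and 0.0570 to 0.129 when 1 library was left out, and after subtraction of the median of its 50 neighbours its log2 fold change went from -0.57 to -0.11 (limma adjusted p = 0.66).

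P4HB, the subunit shared by both prolyl 4-hydroxylase tetramers and a general disulfide isomerase, was the partner that rose. It measured 422, 390 and 464 RPM in HuCCT1/CD90- and 657, 593 and 780 RPM in HuCCT1/CD90+. The groups were apart, in the direction opposite to P4HA1 and P4HA2. The log2 fold change was 0.66 (SE 0.13, limma adjusted p = 0.0328), and it passed in 1 of the 6 fits without 1 library, where it ran from 0.0482 to 0.0978.

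**Figure D4:**
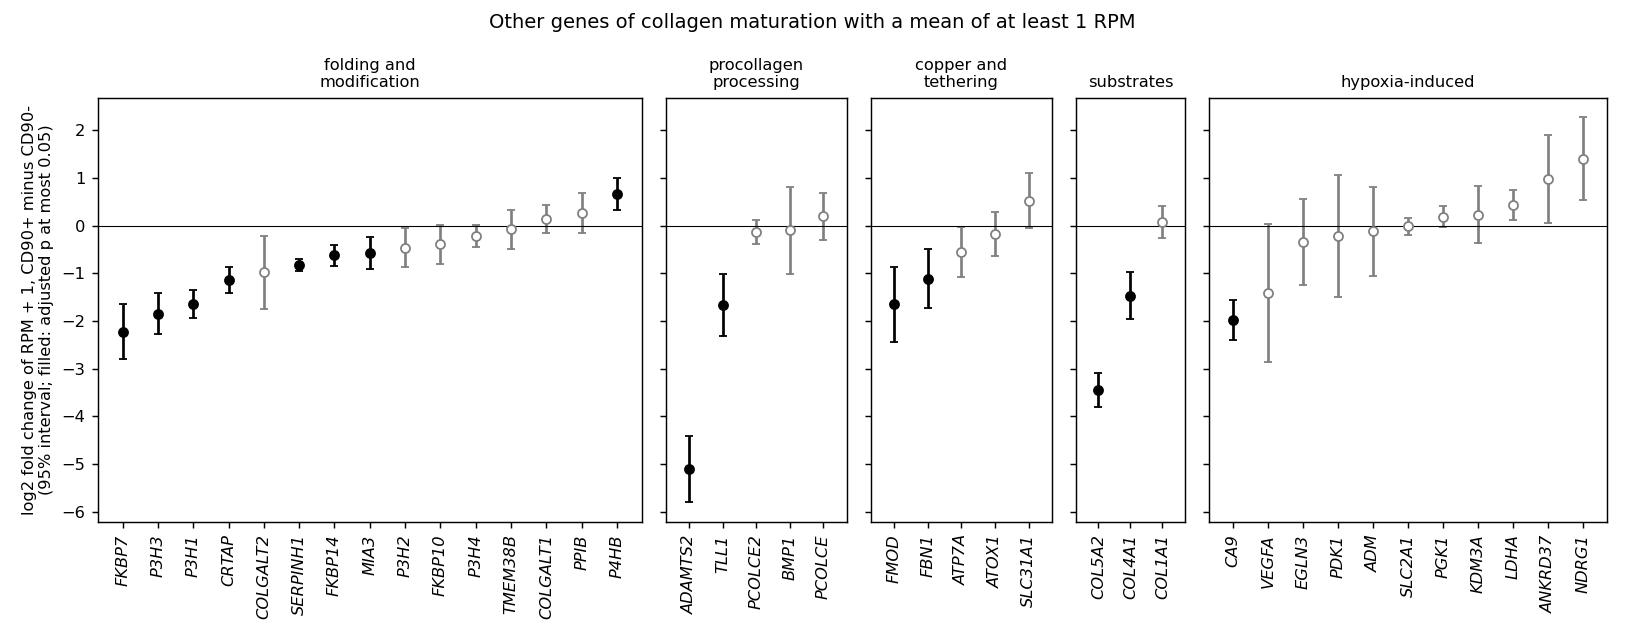
Log2 fold change of RPM + 1 (y axis, HuCCT1/CD90+ minus HuCCT1/CD90-, with 95% intervals) of the other collagen maturation and hypoxia-induced genes at 1 RPM or more on average, by list, filled where the limma adjusted p is at most 0.05. P4HB at 0.66 is the filled point above 0, and ADAMTS2 at -5.11 is the lowest.

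Downstream of the enzymes, 2 of 8 procollagen processing genes fell and none rose, with a list median of -0.11, beside 18.9% of all genes called and 9.52% called lower. ADAMTS2, which cuts off the amino-terminal propeptide of fibrillar procollagens, measured 29.9, 54.5 and 38.2 RPM in HuCCT1/CD90- and had at most 3 reads in any HuCCT1/CD90+ library, which makes it at least 117-fold lower (limma adjusted p = 0.0012). TLL1, a tolloid protease that removes the carboxy-terminal propeptide, fell from 20.9 ± 4.88 to 5.94 ± 1.54 RPM (SD, n = 3, log2 fold change -1.66, limma adjusted p = 0.0157, and 0.0341 to 0.0625 when 1 library was left out). Of 7 genes for copper supply and tethering of lysyl oxidases, FMOD and FBN1 fell and none rose (list median -0.18). In these lists 5 genes each averaged 1 RPM or more, a level at which 15% of all genes were called lower. For the copper and tethering list the count was 0 with an offset of 0.1 RPM. It was also 0 in the 4 fits without HuCCT1/CD90- replicate 2, HuCCT1/CD90- replicate 3, HuCCT1/CD90+ replicate 1 or HuCCT1/CD90+ replicate 2. SLC31A1, a copper importer of that list, was called higher by edgeR and DESeq2. FMOD, a collagen-binding proteoglycan that guides LOX to its sites, fell from 3.83 to 0.555 RPM (limma adjusted p = 0.0262, and 0.0424 to 0.0903 when 1 library was left out), and FBN1, the fibrillin of microfibrils, from 2.66 to 0.702 RPM, with a limma adjusted p of 0.0403 that was 0.090 with the replicate block and 0.0593 to 0.119 when 1 library was left out.

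Among the substrates of the enzymes, 4 of 12 genes fell and none rose (list median -0.10). Beside this, 9.52% of all genes and 15% of those at 1 RPM or more were called lower. The count was 2 falls without HuCCT1/CD90- replicate 3 or without any single HuCCT1/CD90+ library, and only 3 of the 12 averaged 1 RPM or more. COL5A2, a chain of the collagen that starts fibrils, measured 96.6, 100.6 and 97.7 RPM in HuCCT1/CD90- and 9.86, 6.75 and 8.03 RPM in HuCCT1/CD90+, a 12.0-fold fall (log2 fold change -3.44, limma adjusted p = 0.00066). COL4A1, a basement membrane chain, fell from 3.04 to 0.440 RPM (limma adjusted p = 0.0104, and 0.067 with the replicate block). COL1A1, the main fibrillar chain, named here after its values were seen, averaged 13.5 and 14.2 RPM (limma adjusted p = 0.82). The other substrates that fell averaged under 1 RPM, with at most 13 reads in any HuCCT1/CD90- library and 0 in every HuCCT1/CD90+ library. With the replicate block, COL5A2 alone of the substrates was called.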

How the data were processed

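RNA of 6 libraries, 3 per line, was read on an Ion AmpliSeq transcriptome panel. The authors deposited RPM values, amplicon reads scaled to a common library total, made with the ampliSeqRNA plugin of Torrent Suite. The submitters' processing notes name hg19 and Transcriptome Analysis Console. Amplicon positions and strand setting were not given in the sources used here, and levels were not ranked between genes, while ratios of paralogues within a library were compared between the lines. All 6 columns were mapped to samples, and 0 were left over. Members and gene lists were chosen with earlier results of these data known.

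The main test was limma 3.58.1 (R 4.3.3) on log2(RPM + 1) of all 20811 genes, two-sided, with Benjamini-Hochberg adjustment and a threshold of 0.05. Fold changes on this scale understate those of low genes. Ratios were tested with an exact permutation test (scipy 1.17.1). RPM gave whole reads for 100% of values (within 0.05 read), on which edgeR 4.0.16 with filterByExpr called 5357 genes and DESeq2 1.42.0 called 5326. Other fits changed the offset (0.1 or 5 RPM), the filter (mean of at least 1 or 10 RPM), the scaling, the eBayes options, the replicate block and the libraries. A further fit subtracted the median of the 50 nearest genes averaging 10 RPM or more, whose order came from a RefSeq table of GRCh38.p14. Same-numbered libraries of the 2 lines deviated together from their group means (r = 0.21, 0.32 and 0.18). Other pairs had r from -0.29 to 0.07. Deviations from a group mean sum to 0, so these values are tied to the first and add no separate evidence of pairing. The pairing was taken from the numbers in the labels, and a fit with the number as a block is given beside the calls it changed. Counting depth limits the precision of genes near 3 reads, and limits from reads cover counting error only. Scripts were tested on simulated data.

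Named genes were the 10 enzymes, THY1 and cell type markers. Of each other list, those past the threshold at 1 RPM or more on average were named. Values are given for at least the 2 of largest fold change. For LOXL3 and PLOD1, the 3 genes of at least 10 RPM with the highest Pearson r over the 6 libraries were also named. Gene positions and shared exon bases are from GENCODE on GRCh38, promoters from RefSeq on GRCh38.p14, and no coordinate was set against hg19.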

Additional observations from a re-analysis of the deposited data

How the results depend on the processing

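The count of 5 enzymes past the threshold rose to 8 when limma was restricted to genes averaging 1 RPM or more, with median centring, and in edgeR without a filter, edgeR with filterByExpr and DESeq2. It was 4 with the replicate block, with 14 genes of the pathway lists against 17 and 2729 of all genes against 3939, and the block changed no call of an enzyme beyond those of LOXL1, LOXL3 and LOXL4. Leaving out 1 library gave 2 to 5 enzymes, 11 to 14 of the 55 pathway genes and 2197 to 2932 of all genes. PLOD2, which was not called, ran from -0.17 to 0.15 when 1 library was left out, turning to 0.11 without HuCCT1/CD90- replicate 3 and to 0.15 without HuCCT1/CD90+ replicate 2. With an offset of 5 RPM the difference of the log2 ratio of LOXL1 over LOXL2 became -0.20 and that of LOXL3 over LOXL4 became -0.16, since the offset is large against the levels of LOXL2 and LOXL3, and LOXL2 over LOXL3 was -1.01 and LOXL1 over LOXL3 -1.21. Of 126 alternative ratio values 111 stayed within the spread between libraries and 13 moved beyond it, all 13 under an offset of 1 or 5 RPM. Of 187 alternative values of the enzyme fold changes 147 kept direction and side of the threshold, 24 newly passed, 14 no longer passed and 2 reversed. At 2 to 41 reads per library, LOXL2 and LOXL3 were the enzymes that depth limited most.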

Other observations

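Hypoxia-induced genes, which share regulation with LOX, PLOD2 and P4HA1 in textbook accounts, had values in both directions. Of 12 genes 1 fell and none rose in the limma fit to all genes, with a median log2 fold change of -0.0063, beside 18.9% of all genes called. In limma on genes averaging 1 RPM or more, in edgeR and in DESeq2 3 rose and 2 fell. Of the genes each fit tested, that limma fit called 41.7% and DESeq2 37%. The share was 44.4% in edgeR after filterByExpr and 27.6% without a filter. With the replicate block or median centring 1 rose and 1 fell, beside 13.1% and 24.7% of all genes. CA9, a carbonic anhydrase of the cell surface, fell from 50.5 ± 7.86 to 12.1 ± 1.60 RPM (SD, n = 3, log2 fold change -1.98, limma adjusted p = 0.0031). NDRG1, named after its values were seen, averaged 92.5 and 250.1 RPM in HuCCT1/CD90- and HuCCT1/CD90+ (log2 fold change 1.41, limma adjusted p = 0.051, and 0.018 with the replicate block).

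The genes whose log2(RPM + 1) over the 6 libraries was most like that of PLOD1 were BRF1, TLN1 and STEAP3, each with a Pearson r of 0.999. TLN1, the integrin adaptor talin, averaged 371 RPM in HuCCT1/CD90- against 165 RPM. For LOXL3 they were RAP2B (r = 0.995), PLEKHJ1 (r = 0.995) and RASSF7 (r = 0.994). Such likeness was common, since 617 of 8794 genes reached an r of 0.95 with PLOD1 and 281 with LOXL3.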
